A study of Homo sapiens with 9 samples.

Results

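The genes described here are 43 protein-coding genes that encode chromatin regulators, many of them recurrently mutated in T-cell acute lymphoblastic leukaemia (T-ALL). They were taken from a list of names, not from measured values, though the list was chosen with earlier results of these data known. All 43 were found among the 20037 protein-coding genes of the RefSeq GRCh38.p14 gene table on chromosomes 1 to 22, X and Y. For each gene, the peaks that overlapped the gene body or the 10 kb to each side by at least 1 bp were collected. A peak within 1 kb of either end of the gene was counted as lying at a gene end.

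All libraries came from RPMI-8402, an established human T-ALL cell line. An antibody against the homeodomain transcription factor NKX2-1 (ab76013) was used for ChIP-seq on WT clones, 4 in number (WT10, WT13, WT28, WT30), and on 4 clones whose genotype field reads NKX2-1 and which the design text describes as knockouts (C12, C15, S04 and S36), with 1 library per clone. A single library was made with an antibody against histone H3 acetylated at lysine 27 (H3K27ac). Its genotype field also reads NKX2-1, and no clone is named for it. Every clone is a derivative of the same line and no treatment or time was labelled, so p-values over libraries measure the spread between clones, which cannot be told apart from technical spread. The files are lists of called peaks, so sequencing depth is unknown, and a gene without a peak is one where no peak was called. Nor do the lists tell a mark on few copies of a locus from a weak mark on all of them, and they do not test whether a clone lacks NKX2-1.

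Chromatin regulators write, remove, read or reposition the marks and nucleosomes that control access to DNA. Polycomb repressive complex 2 (PRC2) methylates lysine 27 of histone H3, the residue that the acetyltransferases CREBBP and EP300 acetylate, so that methylation and acetylation of this residue exclude each other. H3K27ac marks active promoters and enhancers, and at an active promoter it usually lies on the nucleosomes beside the start site, which itself tends to be free of nucleosomes. In T-ALL, inactivating mutations of PHF6 and of PRC2 subunit genes are recurrent.

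H3K27ac peaks were called at 32 of the 43 genes (74.4%, 95% Wilson interval 59.8 to 85.1), against 29.0% of all protein-coding genes. At a gene end, 25 of 43 had a peak (58.1%, 43.3 to 71.6), against 19.0% of all genes. Of the 39 genes with a start site in the RefSeq promoter table, 26 had a peak within 1 kb of a listed start (66.7%, 51.0 to 79.4), against 20.8% of the 15843 protein-coding genes with a listed start. Among 73 other chromatin genes, 51 had a peak in the window (69.9%) and 38 at a gene end (52.1%), so the 2 sets of chromatin genes lay close together. These comparisons are descriptions: the mark was measured in 1 library, and no test was made.

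**Figure D1:**
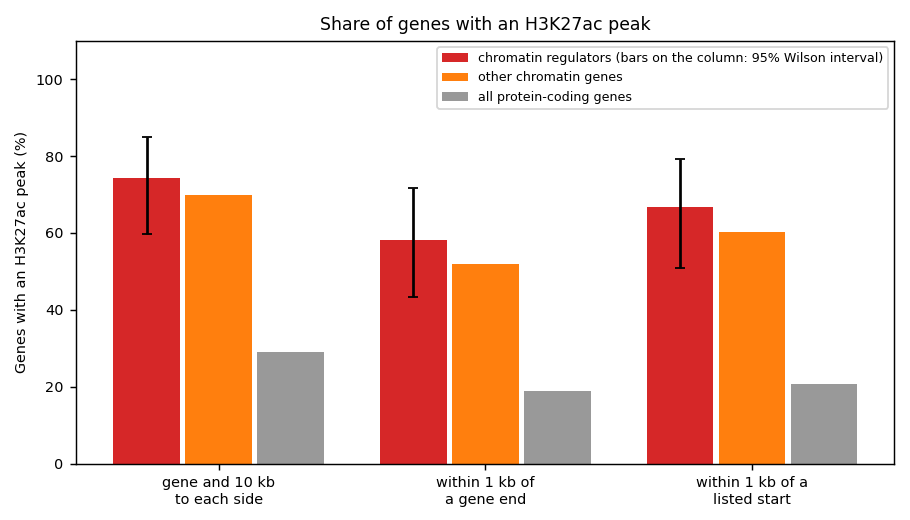
Share of genes with an H3K27ac peak (percent, vertical axis) in the gene or 10 kb to each side, within 1 kb of a gene end and within 1 kb of a listed start, for the chromatin regulators (red), the other chromatin genes (orange) and all protein-coding genes (grey). Both chromatin sets stand above all genes in each of the 3 measures, with 74.4%, 69.9% and 29.0% for the first.

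The 43 genes were longer than most, with a median length of 68.6 kb against 24.1 kb for all genes, and a longer window can hold more peaks. Counted per length, their windows held 1.70 peaks per 100 kb (79 peaks), against 1.38 for the 73 other chromatin genes and 0.691 over the windows of all genes. The area searched at the ends was the same for every gene long enough that the stretches at its ends did not overlap. The strongest end peak had a median deposited fold enrichment of 8.30 over the 25 genes, of 7.90 over the 38 other chromatin genes and of 6.68 over all 3811 genes with an end peak. The fold enrichment is the authors' own value for the summit of a peak over the background of the peak caller.

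More than 1 peak was found at 20 of 43 genes (46.5%), against 12.1% of all genes, and 5 or more at 3 (HDAC7, ARID1A and DNMT3B; 6.98%), against 2.02%. A peak in the window with none at a gene end was found at 7 genes (16.3%), against 9.98% of all genes. Among the 73 other chromatin genes, 34.2% had more than 1 peak and 9.59% had 5 or more. A window peak with none at a gene end was found at 17.8% of them. The last 2 of these shares were above those of the 43 genes.

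Of the 79 peaks, 39 lay at a gene end, and 37 of these were at the 5' end. A single end peak lay at a 3' end, that of KMT2D, and it was within 1 kb of the start of the neighbouring gene PRKAG1. RAD21 has no start in the promoter table, so its end peak was not assigned to a side. Among the other 40 peaks, 17 were inside genes and 23 in the flanks, and 10 of the 40 lay within 1 kb of a listed start of another protein-coding gene. Genes without a start in the promoter table could not be matched, so 10 is a minimum. The mark at these genes was thus split between gene ends and sites away from them. Ends and listed starts were not the same places. Peaks inside ASXL1, NSD1, HDAC7, DNMT3A and TET2 lay within 1 kb of a listed start of the gene, and the end peaks of DNMT3B did not.

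**Figure D2:**
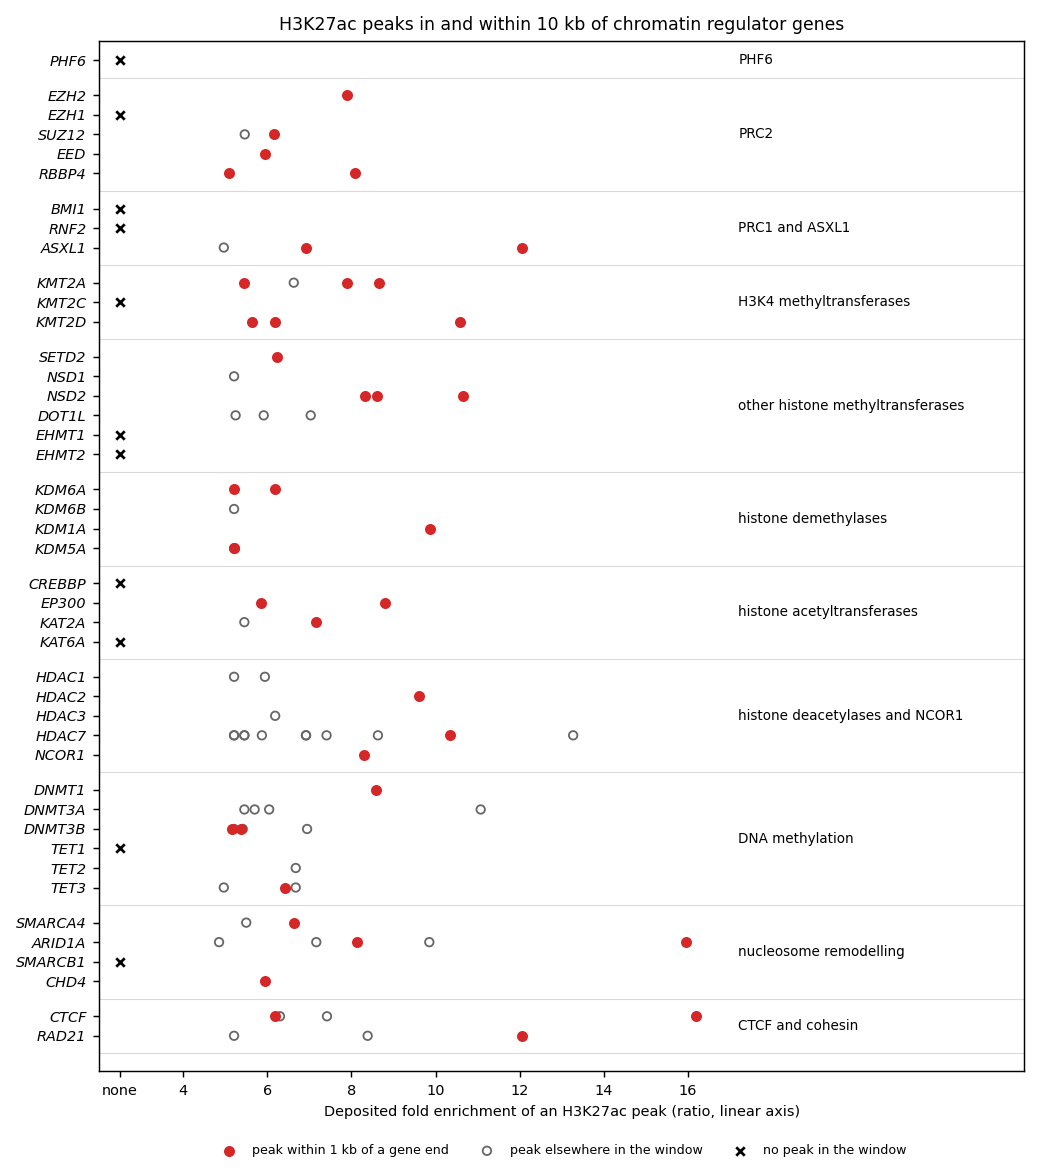
Deposited fold enrichment (horizontal axis, ratio) of each H3K27ac peak in the window of each chromatin regulator gene, grouped by complex or activity; red points lie within 1 kb of a gene end, open circles elsewhere, and a cross marks a gene with no peak. CTCF and ARID1A carried the highest end peaks, and 11 genes had none in the window.

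At start sites, H3K27ac lay mostly downstream. For the 26 genes with a start peak, the summit of the strongest one lay downstream of the nearest listed start in 20 (76.9%). Over all 26, upstream summits counted as negative, the median offset was 477 bp downstream, with quartiles of 49.2 and 619 bp. Over all 3294 genes with a start peak, 71.8% of summits lay downstream, and the median offset counted in the same way was 258 bp, with quartiles of -114 and 431 bp. The first listed start fell inside a peak in 10 genes, among them EED, EP300, HDAC2, ARID1A and CHD4 (25.6%, against 5.28% of all genes with a listed start). In 8 genes, EZH2, SUZ12, SETD2, KDM1A, KDM5A, KAT2A, DNMT1 and SMARCA4, peaks within 1 kb of the first listed start lay downstream of it alone (20.5%, against 9.67%). In 0 genes they lay upstream alone (2.66% of all). The other 16 genes had no peak within 1 kb of the first listed start (41.0%, against 80.3%).

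Peaks on both sides with the start itself in no peak were seen at 5 of 39 genes, CTCF, KMT2A, KMT2D, NSD2 and KDM6A (12.8%). The share was 2.07% of all genes with a listed start and 2 of 58 other chromatin genes (3.45%). The nearest peak edge lay 14 bp from the start at KMT2D, 37 at CTCF, 66 at NSD2, 340 at KMT2A and 581 at KDM6A. At DNMT1, counted as downstream alone, it lay 1 bp away, so some of these classes turn on a few bases. The gap between the flanking peaks was 200 bp at KMT2D, 541 bp at NSD2, 586 bp at CTCF, 895 bp at KMT2A and 1360 bp at KDM6A. The NSD2 gap ran from 1870918 to 1871458 on chromosome 4 and held the whole 300-base promoter window of the gene.

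The promoter windows below show where the mark began and ended at the start of 7 genes: the gene with the strongest end peak (CTCF), a start lying wholly in a gap (NSD2), a start inside a strong peak (ASXL1), and the related pairs KMT2D with KMT2C and EP300 with CREBBP, of which the second gene had no peak. Each runs from 250 bases before to 50 bases after the first listed RefSeq start (GRCh38.p14), 5' to 3' on the strand of the gene, and capitals mark bases inside a called H3K27ac peak.
CTCF (chr16:67562276-67562575, plus strand): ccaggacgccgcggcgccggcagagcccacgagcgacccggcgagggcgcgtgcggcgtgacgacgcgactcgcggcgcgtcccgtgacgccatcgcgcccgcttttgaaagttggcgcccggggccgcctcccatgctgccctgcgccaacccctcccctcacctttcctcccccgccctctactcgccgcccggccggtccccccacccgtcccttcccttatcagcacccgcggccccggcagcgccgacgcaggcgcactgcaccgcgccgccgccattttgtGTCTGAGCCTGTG
NSD2 (chr4:1871143-1871442, plus strand): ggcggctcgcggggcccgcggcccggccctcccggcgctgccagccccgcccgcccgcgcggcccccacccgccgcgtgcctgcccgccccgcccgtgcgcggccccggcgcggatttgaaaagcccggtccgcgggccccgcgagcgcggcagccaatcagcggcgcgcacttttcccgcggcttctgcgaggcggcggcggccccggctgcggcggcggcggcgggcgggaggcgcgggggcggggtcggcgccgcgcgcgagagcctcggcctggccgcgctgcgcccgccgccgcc
ASXL1 (chr20:32358081-32358380, plus strand): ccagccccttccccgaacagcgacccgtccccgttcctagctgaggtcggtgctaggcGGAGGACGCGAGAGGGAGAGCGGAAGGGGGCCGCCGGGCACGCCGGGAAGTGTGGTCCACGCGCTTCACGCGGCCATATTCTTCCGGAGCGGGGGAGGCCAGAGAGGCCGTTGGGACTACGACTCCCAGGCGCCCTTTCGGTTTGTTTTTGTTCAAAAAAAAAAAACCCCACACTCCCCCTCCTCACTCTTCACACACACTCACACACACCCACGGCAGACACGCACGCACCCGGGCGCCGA
KMT2D (chr12:49060745-49061044, minus strand): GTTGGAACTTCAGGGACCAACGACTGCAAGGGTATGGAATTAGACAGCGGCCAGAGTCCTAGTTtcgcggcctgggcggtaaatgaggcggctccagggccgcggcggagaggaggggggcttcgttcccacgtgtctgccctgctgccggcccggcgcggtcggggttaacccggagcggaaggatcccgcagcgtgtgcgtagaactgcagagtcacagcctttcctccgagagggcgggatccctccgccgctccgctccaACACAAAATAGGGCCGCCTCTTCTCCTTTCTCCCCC
KMT2C (chr7:152435954-152436253, minus strand): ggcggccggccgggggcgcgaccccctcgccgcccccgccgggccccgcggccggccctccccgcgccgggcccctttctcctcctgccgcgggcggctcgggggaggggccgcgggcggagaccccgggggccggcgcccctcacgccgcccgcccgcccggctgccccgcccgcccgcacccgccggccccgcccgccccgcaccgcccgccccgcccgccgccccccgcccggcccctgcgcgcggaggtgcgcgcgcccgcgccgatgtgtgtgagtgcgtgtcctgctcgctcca
EP300 (chr22:41092342-41092641, plus strand): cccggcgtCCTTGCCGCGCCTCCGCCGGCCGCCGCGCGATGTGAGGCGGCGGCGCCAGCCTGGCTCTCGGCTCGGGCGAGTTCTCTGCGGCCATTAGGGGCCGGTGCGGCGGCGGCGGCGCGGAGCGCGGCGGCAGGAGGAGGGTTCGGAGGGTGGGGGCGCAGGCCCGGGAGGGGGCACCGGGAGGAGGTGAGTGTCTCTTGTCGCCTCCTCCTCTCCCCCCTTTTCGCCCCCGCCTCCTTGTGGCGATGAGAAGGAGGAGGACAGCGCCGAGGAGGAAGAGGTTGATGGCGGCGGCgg
CREBBP (chr16:3880664-3880963, minus strand): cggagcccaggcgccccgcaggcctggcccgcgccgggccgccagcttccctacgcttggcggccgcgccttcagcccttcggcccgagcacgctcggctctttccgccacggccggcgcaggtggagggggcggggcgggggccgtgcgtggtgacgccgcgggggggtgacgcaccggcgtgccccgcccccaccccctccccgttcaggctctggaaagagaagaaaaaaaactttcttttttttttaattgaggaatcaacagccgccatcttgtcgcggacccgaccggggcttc

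In the CTCF window 13 of 300 bases were in a peak, all after the start, and in the NSD2 window 0 were. The ASXL1 window had 242 bases in 1 peak and that of EP300 290, while the KMT2D window was crossed by both flanking peaks, with 100 bases in them and 200 between. KMT2C and CREBBP had no base in a peak. The KMT2C window held 56 CpG dinucleotides and that of CREBBP 36, beside 27 in KMT2D and 40 in EP300. Over the 39 promoters, the median was 31.5 CpG (range 7 to 63) for the 26 with a start peak. It was 30 (range 3 to 56) for the 13 without, with the lowest counts at DNMT3B (3) and TET1 (10). Whether CpG content bears on the calls was not tested. For all protein-coding promoters with and without a start peak the medians were 27 and 20. CpG was counted in 1 window per gene, whereas the peak could lie at any listed start. NSD1 (7 CpG), TET2 (13) and DNMT3A (26) thus counted as having a start peak without one within 1 kb of the first listed start. The widths of the 2 separations were therefore not compared.

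The promoters were searched for short motifs of RUNX, ETS and NKX2-1 factors. The RUNX motif TGTGGT, on either strand, was found in 2 of the 39 (5.13%), ASXL1 and KDM6B, against 10.8% of the 15843 promoters of the same length. In ASXL1 it began 142 bases before the start, inside the H3K27ac peak, and was followed by a match to the ETS motif CCGGAA 111 bases before the start. The ETS motif was present in 8 of 39 promoters (20.5%, against 22.9% of all). For NKX2-1, CAAGTG was present in KAT2A and DNMT3A (5.13%, against 10.0%) and CTCAAG in NSD1 and SMARCB1 (5.13%, against 11.2%). The last pair of motifs share the letters CAAG, so a longer match can hold both. A match of 6 letters is a description of these windows and not a bound site.

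**Figure D3:**
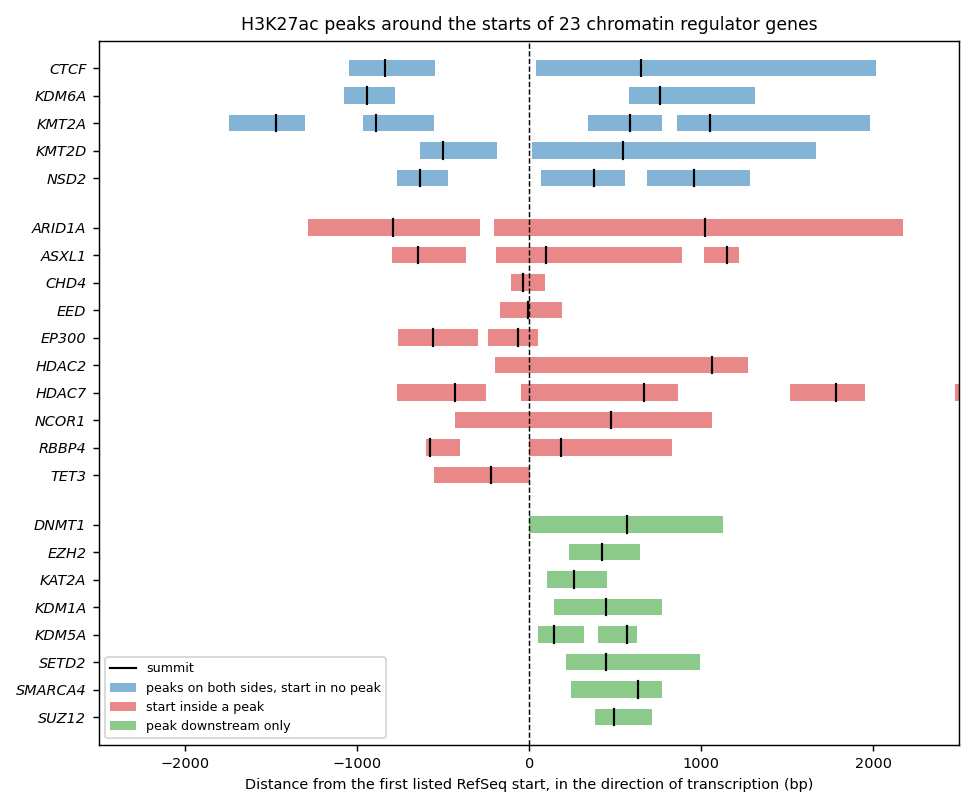
Extent of H3K27ac peaks (bars) and their summits (black ticks) around the first listed start of 23 chromatin regulator genes, as distance in bp along the direction of transcription, with the start at the dashed line. Blue genes have peaks on both sides of a start that lies in none, red genes have the start inside a peak, and green genes have peaks downstream alone.

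CTCF, the insulator protein that sets loop boundaries together with cohesin, had the strongest end peak of the 43 genes. That peak (chromosome 16, 67562563 to 67564543) was 1981 bp long with a deposited 16.2-fold enrichment and ranked 89 among the 9857 H3K27ac peaks. A weaker peak of 6.17-fold lay upstream of the start, and 2 more, of 7.42- and 6.30-fold, lay 6190 and 6856 bp beyond the 3' end. RAD21, the kleisin subunit of cohesin, carried an end peak of 12.05-fold (chromosome 8, 116873359 to 116874533) and 2 flanking peaks of 8.39- and 5.21-fold. Both genes of this group were thus marked.

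Among nucleosome remodellers, ARID1A, the DNA-binding subunit of the BAF (SWI/SNF) complex, was close behind CTCF. Its strongest peak (chromosome 1, 26695809 to 26698185) was 2377 bp long and 15.96-fold, and ranked 96 in the list. The window of ARID1A held 5 peaks, but the pair beyond its 3' end, of 7.16- and 9.85-fold, lay within 1 kb of the start of PIGV. SMARCA4, the ATPase of BAF, had a 6.64-fold peak 630 bp downstream of its start and a 5.50-fold peak further into the gene. CHD4, the ATPase of the NuRD complex, had 1 peak of 5.94-fold across its start. SMARCB1, a core BAF subunit, had none, and its nearest H3K27ac peak was 56683 bp away.

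In PRC2, 4 of 5 genes had an end peak. EZH2, the main catalytic subunit in dividing cells, had a single 7.90-fold peak 424 bp downstream of its first listed start (chromosome 7, 148883650 to 148884061). The summit of this peak lay upstream of the other listed start of EZH2, at an offset of -382 bp. SUZ12 and EED, the other core subunits, had end peaks of 6.16- and 5.94-fold, and the histone-binding subunit gene RBBP4 had end peaks of 8.09- and 5.08-fold, both also within 1 kb of the start of the divergent neighbour ZBTB8OS. EZH1, the alternative catalytic subunit, had no peak within 10 kb, and the nearest lay 78795 bp away.

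Polycomb repressive complex 1 differed from PRC2 in these calls. BMI1 and RNF2, which form its ubiquitin ligase core, had no H3K27ac peak, with the nearest 382405 and 214108 bp from the gene. ASXL1, the cofactor of the BAP1 deubiquitinase that removes the PRC1 mark, had 3 peaks, the strongest of 12.05-fold across its start (chromosome 20, 32358139 to 32359220). PHF6, an X-linked gene whose loss is frequent in T-ALL, had no peak in its window, and the nearest lay 121289 bp away.

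The H3K4 methyltransferase genes were divided. KMT2A, the target of MLL rearrangements, had 4 peaks, of which 3 lay at its 5' end with 8.66-, 7.90- and 5.45-fold enrichment. KMT2D had an end peak of 10.58-fold (chromosome 12, 49059127 to 49060780), and its paralogue KMT2C had none, with the nearest peak 239675 bp away.

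Of the 6 other histone methyltransferase genes, 2 had an end peak. NSD2, which dimethylates H3K36, had 3 peaks around its start of 8.33-, 8.60- and 10.7-fold, the strongest 959 bp downstream (chromosome 4, 1872075 to 1872674). SETD2, which trimethylates H3K36, had 1 of 6.23-fold. NSD1, the paralogue of NSD2, had a single 5.21-fold peak 2968 bp downstream of its first listed start and 630 bp downstream of another. DOT1L, the H3K79 methyltransferase, had 3 peaks beyond its high-coordinate end, of which 2 lay within 1 kb of the starts of PLEKHJ1 or SF3A2. The H3K9 methyltransferase genes EHMT1 and EHMT2 had none in their windows, at 752750 and 44472 bp from the nearest peak.

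Among demethylases, KDM1A, which removes methyl groups from H3K4, had a 9.87-fold peak 446 bp downstream of its start. KDM5A, another H3K4 demethylase, had 2 weak peaks of 5.21-fold each, also within 1 kb of the start of CCDC77. KDM6A, the X-linked H3K27 demethylase UTX, had 2 peaks flanking its start, of 5.21- and 6.19-fold. Its paralogue KDM6B had no peak at its own ends, and the 1 peak in its window lay 2262 bp beyond the gene, near the start of NAA38.

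The acetyltransferase paralogues that deposit H3K27ac differed in these calls. EP300 had peaks of 8.79- and 5.86-fold, with summits 561 and 63 bp upstream of its start, whereas CREBBP had none, with the nearest peak 147389 bp from the gene. KAT2A, the catalytic subunit of the SAGA and ATAC complexes, had a start peak of 7.16-fold and a 5.45-fold peak beyond its 3' end. KAT6A, the MOZ acetyltransferase, had no peak in its window.

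HDAC7, a class IIa histone deacetylase that is expressed in thymocytes, had more H3K27ac peaks in its window than any other of the 43 genes, 11, a number that placed it at rank 57 of all protein-coding genes. Along its 5' part, 6 summits followed one another from 430 bp before to 4878 bp after the first start, with enrichments of 10.3-, 8.63-, 6.92-, 6.92-, 5.45- and 5.45-fold. A second cluster of 4 peaks lay beyond the 3' end, and its strongest (chromosome 12, 47776006 to 47777971, 13.3-fold) lay 5445 bp from the gene with no listed start within 1 kb. The weakest of that cluster lay within 1 kb of the start of SLC48A1, so the assignment of the cluster to HDAC7 rests on distance alone.

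The class I deacetylases had fewer calls. HDAC2 had a peak of 9.61-fold, 1470 bp long, that crossed its start. HDAC1 and HDAC3 had no peak at their own ends: the 2 in the HDAC1 window lay within 1 kb of the start of MARCKSL1, and the 1 in the HDAC3 window near that of DIAPH1. NCOR1, the corepressor that activates HDAC3, had an 8.30-fold peak 1493 bp long across its start.

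For DNA methylation, the maintenance methyltransferase gene DNMT1 had an 8.57-fold peak 571 bp downstream of its start. DNMT3A, a de novo methyltransferase, had 4 peaks, all inside the gene and none at its ends. The strongest (chromosome 2, 25251200 to 25252330, 11.1-fold) had its summit 478, 610 and 662 bp downstream of 3 internal listed starts at 25252131, 25252263 and 25252315, and lay 90272 to 90937 bp from the 3 starts near the 5' end. The other 3 DNMT3A peaks, of 5.70-, 5.45- and 6.04-fold, lay inside the gene away from any listed start, so the strongest of the 4 was the 1 at a listed start.

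DNMT3B, the other de novo methyltransferase gene, had 5 peaks of 5.15- to 6.95-fold, of which 3 lay near the 5' boundary of the gene and none within 1 kb of its listed start. Among the TET dioxygenases, which oxidise methylcytosine, TET2 had a 6.68-fold peak and TET3 a 6.43-fold peak near a start, and TET1 had none. TET1 was the unmarked gene closest to the window's edge, with a peak 27177 bp away. At the 1 kb limit for ends, SETD2 was inside at 942 bp and TET2 outside at 1068 bp.

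**Figure D4:**
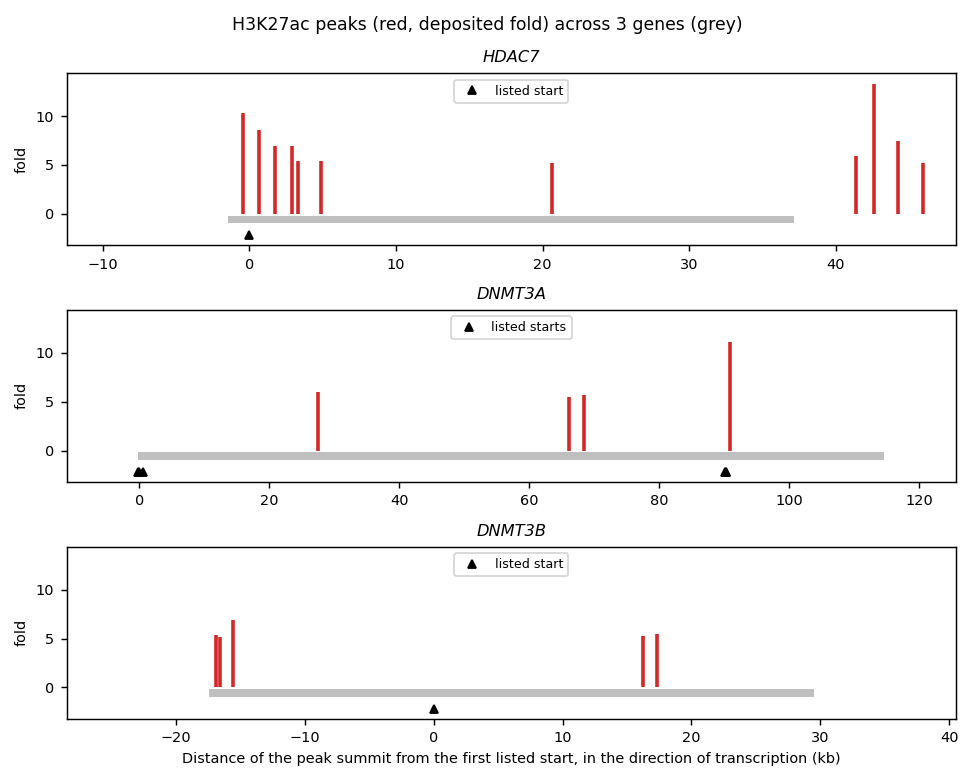
H3K27ac peak summits (red lines, height is the deposited fold enrichment) across HDAC7, DNMT3A and DNMT3B (grey bars) as distance in kb from the first listed start (triangles mark listed starts). Peaks of HDAC7 form a cluster at the 5' part and one beyond the 3' end, and the highest peak of DNMT3A, 11.1-fold, stands beside its internal starts.

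NKX2-1 antibody peaks were rare at these genes. A peak of any of the 8 libraries was found at 2 of 43, EHMT1 and EZH2 (4.65%, 95% Wilson interval 1.28 to 15.5), against 2.59% of all protein-coding genes. Among the 73 other chromatin genes 4 had such a peak (5.48%), a share close to that of the 43. S36 had calls at more genes than the other knockout libraries, and without it the count among the 43 genes was again 2. The number of genes with a peak was 1 in C12, 1 in C15, 2 in S04 and 2 in S36 among knockout libraries, and 1 in each of WT10, WT13, WT28 and WT30. Over all protein-coding genes the share with a peak was 0.489% in C12, 0.419% in C15, 0.344% in S04 and 1.52% in S36, and 1.31% in WT10, 0.245% in WT13, 0.644% in WT28 and 0.409% in WT30. The mean was 1.5 ± 0.577 genes in knockout and 1 ± 0 in WT libraries (SD, n = 4 each), a difference of -0.5 (WT minus knockout; two-sided exact permutation p = 0.429, adjusted p = 0.429 over 2 tests). The ranges met at 1, and the difference did not pass the test.

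Counted as peaks, C12 had 1 in these windows, C15, S04 and S36 had 2 each, and each WT library had 1. The means were 1.75 ± 0.5 and 1 ± 0 (SD, n = 4 each), a difference of -0.75 (WT minus knockout; two-sided exact permutation p = 0.143, adjusted p = 0.286; the smallest p that 70 assignments allow is 0.0286). Without C12 the difference was -1 peak, with an unadjusted exact permutation p of 0.0286. C12 was the only knockout library at the WT count of 1. Leaving it out therefore fixes this p at the smallest the remaining libraries allow, and no conclusion is drawn from it. With the gene body alone, with the summit required inside the window, or with peaks of a −log10 q of 5 or more, it was -0.5 (exact permutation p = 0.429), and with a −log10 q of 10 or more it was -0.25 (exact permutation p = 1). Each library contributed at most 2 peaks, so these values turn on single calls.

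A site in EHMT1 (chromosome 9, 137715948 to 137716658) was called in all 8 libraries, and EHMT1 was the 1 gene of 43 with such calls, against 0.155% of all genes. It lay inside the gene body, with summits 97276 to 97516 bp downstream of the start. The deposited fold enrichment was 18.0 in C12, 15.1 in C15, 22.5 in S04 and 24.4 in S36, and 10.1 in WT10, 7.66 in WT13, 8.04 in WT28 and 9.67 in WT30. All 4 knockout values lay above all 4 WT values, with means of 19.99 ± 4.23 and 8.86 ± 1.19 (SD, n = 4 each).

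This separation is a description, made after the values were seen, because each fold is relative to the background of its own library. Among the 315 regions called in all 8 libraries, the 4 knockout folds lay above the 4 WT folds in 14.6%, and the reverse held in 5.71%. The median fold over those regions was 7.90 to 8.90 in knockout and 7.66 to 8.72 in WT libraries, and the groups overlapped in this median. By fold, the EHMT1 site ranked 16 to 55 among the 315 regions in knockout libraries and 107 to 161 in WT libraries. The site was called in the clones described as knockouts as well as in WT clones, so these calls do not tie it to NKX2-1. The nearest H3K27ac peak lay 849693 bp away.

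**Figure D5:**
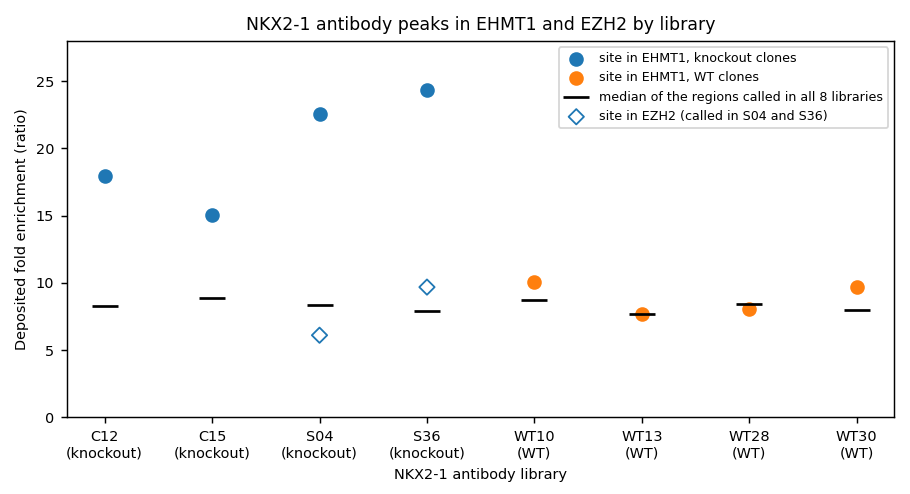
Deposited fold enrichment (vertical axis, ratio) of the EHMT1 site in each NKX2-1 antibody library (filled circles, blue for knockout and orange for WT clones), of the EZH2 site where it was called (open diamonds), and the median of the 315 regions called in all 8 libraries (black bars). The EHMT1 values of the knockout libraries, from 15.1 to 24.4, all lie above those of the WT libraries, from 7.66 to 10.1, while the medians overlap.

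C15 had a second call in the EHMT1 window, of 5.41-fold, 9996 bp beyond the gene and so just inside the window. The nearest call outside any window was in S36, 43282 bp from HDAC1. The EZH2 site (chromosome 7, 148838971 to 148839352) lay inside the gene, 45190 bp downstream of its start by the S36 summit. It was called in S04 at 6.11-fold and in S36 at 9.69-fold, and in 0 of the other 6 libraries. The nearest H3K27ac peak lay 44298 bp away, so the call was apart from the marked EZH2 start.

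The authors' combined NKX2-1 list had a peak at 2 of 43 genes, SETD2 and BMI1 (4.65%, 1.28 to 15.5), against 0.744% of all genes and 0 of the 73 other chromatin genes. The SETD2 peak (chromosome 3, 47057395 to 47057670, 4.38-fold, −log10 q 9.76) lay inside the gene, 106609 bp downstream of its start. The BMI1 peak (chromosome 10, 22333210 to 22333572, 4.86-fold, −log10 q 10.1) lay 1504 bp beyond the 3' end of the gene. Each was called in 0 of the 8 single libraries, and the nearest H3K27ac peaks were 66461 and 380539 bp away. By fold they ranked 92 and 57 among the 209 peaks of that list. The WT-only list had no region at any of the 43 genes, against 1.03% of all genes and 1 of the 73 other chromatin genes (1.37%).

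As a check of the cell type, H3K27ac peaks were found in the windows of 6 of 8 T-cell marker genes. These were CD3D, CD3E, CD3G, CD5, LCK and PTPRC, and none was called at CD7 and CD2. Of the B-cell markers 1 of 4 had a peak, and of the myeloid markers 2 of 3, against 29.0% of all protein-coding genes. No peak lay at a gene end at CD5, PTPRC or any B-cell or myeloid marker. With lists this short, the window counts do not separate T-cell from myeloid markers.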

How the data were processed

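ChIP-seq peak lists were analysed for 9 samples of RPMI-8402. Per the submitters' processing notes, Bowtie2, MACS2, SAMtools, deepTools and FastQC were used on build hg38. Neither their versions and settings nor a control library is given in the sources used here. For each peak the deposited files hold its position, a ratio (fold enrichment at the summit), a −log10 q-value and the summit's place; a deposited score and a −log10 p-value were left unused. They also deposited a combined list and a list described as WT only, whose making is not stated. Fold and −log10 q are the authors' values and describe or filter peaks.

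Peaks of the 22 autosomes, X and Y were joined to gene positions of RefSeq GRCh38.p14, the assembly that hg38 names, in 1-based coordinates (Python 3.11.15, pandas 2.3.3, numpy 2.4.6). The gene table gives no exons. Starts, strands and promoter sequences came from the RefSeq promoter table, which matched 39 of the 43 genes; PHF6, DOT1L, KAT6A and RAD21 are named without them. Values per library were compared by a two-sided exact permutation test with Benjamini-Hochberg adjustment over 2 tests. Overlap counting and this test were tested on simulated data. Genes named were those with an NKX2-1 antibody call, the 15 with the strongest end peaks, the 10 with most peaks, those with none, and others of their groups. The genes and lists were chosen with earlier results of these data known. The result of a further marker list is not reported here.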

Additional observations from a re-analysis of the deposited data

Results flagged for a closer look

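Among knockout libraries, C12 stood apart from the others with 1 NKX2-1 antibody peak in the windows of the 43 genes, where C15, S04 and S36 had 2 each. S36 stood apart with 1.52% of all protein-coding genes near a peak, against 0.344% to 0.489% in the other knockout libraries. The rule compares the gap to the nearest library with the range of the group of 4. For values without ties, chance flags about 1 in 20 groups, and 2 flags came from 10 groups examined. That rate does not apply to the C12 flag, because a library that differs from 3 equal counts is always flagged. The WT groups with equal counts in every library could not be flagged. The S36 value bears on EZH2, which was called in S36 and S04.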

How the results depend on the processing

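Of 66 recomputed values, 56 kept their direction, their side of the threshold or, for counts, stayed within 1.5 times the reported value. With peaks of a −log10 q of 5 or more, the windows held 39 H3K27ac peaks. At 10 or more they held 13, with 11 genes marked in the window, 10 at a gene end and 10 at a listed start, and the combined list had a peak at 1 gene (BMI1). With the gene body alone, 46 peaks remained in the count and the combined list had a peak at 1 gene (SETD2), while DOT1L, HDAC1, HDAC3 and KDM6B lost their H3K27ac peaks. With 50 kb to each side there were 141 peaks, and EHMT2 and TET1 gained one. These settings change the stretch searched or the peaks counted by construction. The shares over all protein-coding genes were not computed at these settings. The changed counts therefore have no background here and cannot be set against the shares given in the Results. Settings for the listed starts were chosen after seeing the data. Leaving out each library in turn gave differences, WT minus knockout, of -0.667 to -0.333 genes and -1 to -0.667 peaks. The value of -1 came without C12 (exact permutation p = 0.0286, unadjusted). That p is fixed by leaving out the only knockout library whose count equalled that of the WT libraries. The difference in peaks was -0.5 with the gene body alone, with summits inside or at a −log10 q of 5, -0.25 at 10, and -1 with 50 kb (exact permutation p = 0.143). No paired analysis was possible because the clone names share no replicate numbers. Read depth is unknown, so a gene without a call cannot be told apart from one marked below the calling threshold.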
